A study of Mus musculus with 6 samples.

Results

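Antisense transcripts annotated as such were examined in the prefrontal cortex of male C57BL/6 mice given polystyrene nanoparticles (PS NPs) or water. They were the rows of the linear transcript table that match a known transcript (class code "=") and carry the type antisense, 4491 of 175010 rows, with 3072 gene symbols. The PS_high group received 50 mg/kg PS NPs by gavage every day for 6 months (n = 3 samples), and the control group received water (0 mg/kg, n = 3 samples). Gavage began at an age of 5 weeks in both groups, the mice were sampled at 30 weeks, and the labels give no genetic alteration in either group. RNA was depleted of ribosomal RNA and sequenced with a stranded kit, which can tell reads from opposite strands apart. Some rows assembled from the reads still carry no strand. The labels do not say how the samples were housed or pooled, so the p-values measure the spread between these samples only.

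Antisense transcripts are made from the strand opposite to another gene. Some act on the gene they overlap: in imprinted regions, transcription of Kcnq1ot1 or Airn from the paternal chromosome silences neighbouring genes on that chromosome, and in neurons Snhg14 extends into a transcript that silences paternal Ube3a. For most annotated antisense transcripts no function is known. They lie head to head with the partner (the starts overlap), tail to tail (the ends overlap), inside the partner's body, or across it.

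Promoter sequences were looked up for the start sites. RefSeq promoter windows (GRCm38.p6, 250 bases before to 50 after the start) were found under the symbol and strand of 1998 of the 4491 transcripts, and for 1084 the RefSeq start lay within 100 bases of the start in the table. The examples are shown because they belong to transcripts described below and represent different arrangements; capitals mark CG dinucleotides, the sites of DNA methylation that are dense in CpG islands. The windows are Kcnq1ot1, inside Kcnq1 (chr7:143296498-143296797, minus strand), 4933431E20Rik, head to head with Gstm5 (chr3:107896164-107896463, minus strand), 9530082P21Rik, tail to tail with Flywch1 (chr17:23748986-23749285, plus strand), and 1700109K24Rik, inside Rbfox2 (chr15:77084148-77084447, plus strand).
Kcnq1ot1: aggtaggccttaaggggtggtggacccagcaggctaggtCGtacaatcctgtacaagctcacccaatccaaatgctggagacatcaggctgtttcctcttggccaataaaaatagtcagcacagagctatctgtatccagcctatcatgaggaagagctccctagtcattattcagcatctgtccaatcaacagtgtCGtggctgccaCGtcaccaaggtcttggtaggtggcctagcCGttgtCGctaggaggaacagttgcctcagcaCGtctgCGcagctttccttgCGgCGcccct
4933431E20Rik: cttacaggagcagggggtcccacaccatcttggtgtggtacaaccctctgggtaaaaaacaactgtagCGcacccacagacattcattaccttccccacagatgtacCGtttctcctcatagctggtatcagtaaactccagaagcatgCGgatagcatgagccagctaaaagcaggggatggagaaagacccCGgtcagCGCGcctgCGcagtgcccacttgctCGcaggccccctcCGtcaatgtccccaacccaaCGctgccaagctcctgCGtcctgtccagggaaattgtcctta
9530082P21Rik: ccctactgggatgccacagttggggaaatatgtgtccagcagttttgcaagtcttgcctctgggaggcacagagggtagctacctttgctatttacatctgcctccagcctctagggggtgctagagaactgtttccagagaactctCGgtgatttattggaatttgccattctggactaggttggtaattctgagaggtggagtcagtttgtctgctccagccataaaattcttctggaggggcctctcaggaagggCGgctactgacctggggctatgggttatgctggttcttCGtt
1700109K24Rik: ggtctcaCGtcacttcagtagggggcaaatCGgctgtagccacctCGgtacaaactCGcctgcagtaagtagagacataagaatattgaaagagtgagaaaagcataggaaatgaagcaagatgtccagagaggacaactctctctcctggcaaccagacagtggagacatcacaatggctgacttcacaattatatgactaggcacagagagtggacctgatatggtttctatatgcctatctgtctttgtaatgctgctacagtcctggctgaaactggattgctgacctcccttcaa
The window of 4933431E20Rik held 11 CG and that of Kcnq1ot1 held 9, against 4 in 1700109K24Rik and 3 in 9530082P21Rik. The Kcnq1ot1 window also held CCAAT 3 times (counted as CCAAT or, on the other strand, ATTGG). At least 3 such matches were present in 3.37% of all 32851 RefSeq promoter windows.

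Among antisense transcripts expressed in this tissue (a mean of at least 0.5 FPKM, fragments scaled to transcript length and library size), 258 had a near RefSeq start, in 230 different windows. At least 10 CG were present in 36 of 48 head-to-head windows (75.0%) and in 36 of 56 tail-to-tail windows (64.3%). Of windows inside the partner, 17 of 114 (14.9%) had as many. The share over all RefSeq windows was 43.5%, and over the windows of antisense transcripts below 0.5 FPKM it was 37.9%. Where the transcript began within 1000 bases of its partner's start, 26 of 32 windows (81.3%) had at least 10 CG. The motif TATAAA, searched on both strands, was in 9.57% of the 230 windows and in 13.6% of all. These are counts of letters in windows that can overlap those of the partner, and no test was made on them.

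**Figure D1:**
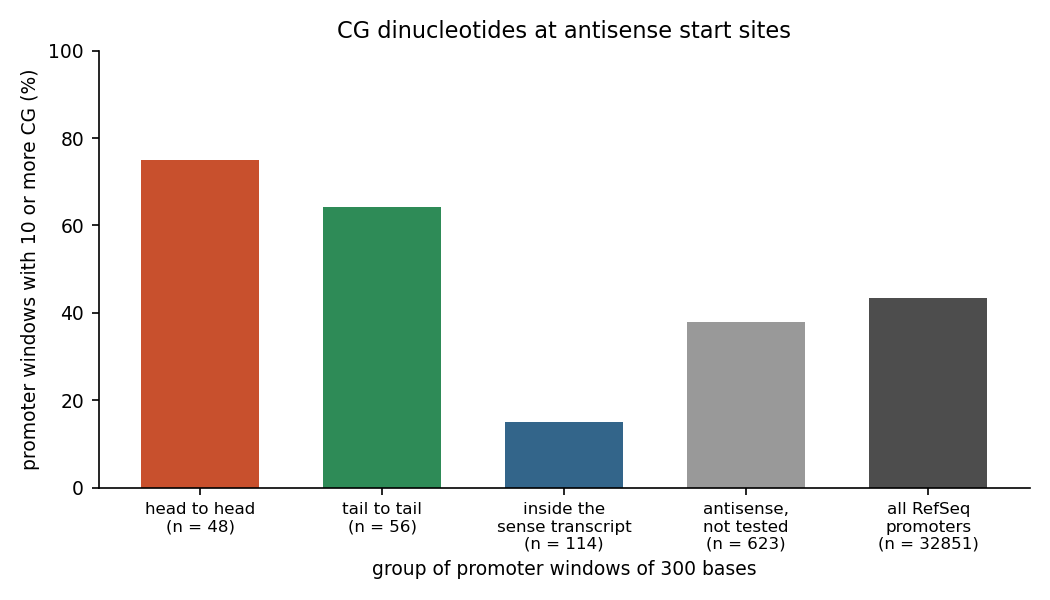
Share of RefSeq promoter windows (300 bases each) with 10 or more CG dinucleotides, by group of antisense transcripts and over all RefSeq windows; bars start at 0 and n is the number of windows. The bar for transcripts inside their partner (14.9%) is the lowest, and that for head-to-head transcripts (75.0%) the highest.

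Most annotated antisense transcripts were rare or not detected in this tissue. Of the 4491, 1324 had a count of 0 in all 6 libraries, and 1678 had a count in every library. The median over all was 0.0872 FPKM, 516 reached 1 FPKM, 27 reached 5 FPKM and 5 reached 10 FPKM. The 1062 with a mean of at least 0.5 FPKM (23.6%, from 920 genes) were tested for a difference between groups. This filter uses the mean over all 6 libraries. The single transcript with the highest count held 7.62% of all antisense counts, and the top 100 held 46.5%. By structure they were short: the median length was 763 bases over all and 994.5 bases among those tested, where 109 had a single exon. For comparison, the median annotated protein-coding row with a mean of at least 0.5 FPKM had 2818 bases.

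A protein-coding transcript on the opposite strand overlapped 3782 of the 4491 (84.2%) and 983 of the 1062 tested (92.6%). Of the tested transcripts with a partner, 627 (63.8%) lay inside it, 173 ran tail to tail, 161 head to head, and 22 spanned it. In 104 (10.6%) the start was within 1000 bases of the partner's start. The tested antisense transcripts had a median of 0.980 FPKM, and their partner transcripts 2.20 FPKM. In 311 pairs (31.6%) the antisense transcript had a higher FPKM than the partner transcript. The partner transcript was a single annotated protein-coding row, not the whole gene, and it did not have to pass the filter. Against whole sense genes, described below, the antisense level was higher in 149 of 1773 gene pairs (8.40%). There the antisense level sums annotated antisense rows only, while the sense gene also includes assembled rows. Of the 79 tested transcripts without a protein-coding partner, 18 overlapped some other annotated row and 61 none.

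Summed estimated counts were 53344395 to 63466209 in PS_high libraries and 61842978 to 66004386 in control libraries. Marker genes of cortical excitatory neurons (6 of 6 found) summed to 1118 to 1268 counts scaled to library size (CPM) in PS_high and 966 to 1268 CPM in control. Choroid plexus markers (Ttr, Kl, Folr1, Kcne2) varied more between libraries: 18.04, 682 and 433 CPM in PS_high 1 to 3, and 10.7, 372 and 182 CPM in control 1 to 3. On the first principal component of the 2000 most variable genes (28.0% of the variance), PS_high 1 stood apart with a score of 41.1, against -21.0 to 14.2 in the other libraries. Counts of differences are therefore also given without it.

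Annotated antisense transcripts took 0.381%, 0.369% and 0.336% of all counts in PS_high 1 to 3, against 0.384%, 0.427% and 0.370% in control 1 to 3. The groups overlapped, and the mean share was 0.362 ± 0.0234% in PS_high and 0.394 ± 0.0301% in control (SD, n = 3 each; exact two-sided permutation test, p = 0.2, where 0.1 is the smallest p that 3 against 3 samples allow). The number of antisense transcripts with at least 10 counts was 1846, 1831 and 1867 in PS_high, and 1874, 1977 and 1919 in control. Every PS_high library was below every control library (exact permutation p = 0.1). The PS_high libraries were also the shallower ones on average, and the part of depth in this was not tested.

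Kcnq1ot1, the unspliced RNA of 93092 bases inside Kcnq1 (chr7:143203458-143296549, minus strand), had the highest estimated count of all annotated antisense transcripts. Its counts were 15880, 18791 and 17255 in PS_high and 17475, 21999 and 15475 in control, so that the groups overlapped. Per length it was moderate, with a mean of 2.61 FPKM. The transcripts highest in FPKM were B230334C09Rik (20.2 FPKM, described below), Tug1, Snhg14, Gm17494, Gm13389, 1700109K24Rik, 9530082P21Rik and 4933431E20Rik. Tug1 encodes a long non-coding RNA first described in the developing retina. Its main row (ENSMUST00000153313, chr11:3639794-3647530, minus strand) had 21.4, 10.9 and 22.4 FPKM in PS_high and 21.5, 21.4 and 19.5 FPKM in control, and PS_high 2 alone was low. In that library another Tug1 row, ENSMUST00000132077, had 1603 counts, against 191 and 207 in PS_high 1 and 3 and 137, 140 and 280 in control. The gene sum was 10078, 6762 and 10700 counts in PS_high and 10687, 10096 and 10144 in control.

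Gm17494 runs tail to tail with Gclm, which encodes the modifier subunit of the enzyme that starts glutathione synthesis. It had 17.1, 17.6 and 20.1 FPKM in PS_high and 12.9, 20.03 and 23.0 FPKM in control, and the groups overlapped. Gclm itself had 24.0, 19.5 and 24.1 CPM in PS_high and 29.9, 31.0 and 101 CPM in control, where control 3 was far above the rest; its log2 fold change was -1.26 ± 0.47 (SE; edgeR unadjusted p = 0.030, adjusted p = 0.9997). Gm13389 runs head to head with Celf2, an RNA-binding splicing regulator, and begins 726 bases from its start. Its FPKM lay close together, 12.6, 13.2 and 11.9 in PS_high and 14.2, 13.1 and 11.7 in control. 1700109K24Rik, whose promoter window is shown above, lies inside the splicing factor gene Rbfox2 and had 10.8, 9.92 and 8.20 FPKM in PS_high and 8.35, 11.1 and 9.26 FPKM in control. The head-to-head transcript 4933431E20Rik, 392 bases from the start of the glutathione transferase gene Gstm5, had 10.7, 11.2 and 5.90 FPKM in PS_high and 11.6, 5.09 and 11.4 FPKM in control. The low library was PS_high 3 in the treated animals and control 2 in the others, and in exactly these a shorter row of the same gene (ENSMUST00000152663) had counts, 2054 and 290, against 0 in the other 4. 9530082P21Rik had 3.20, 11.5 and 11.5 FPKM in PS_high and 9.68, 9.31 and 12.5 FPKM in control, and PS_high 1 was low.

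**Figure D2:**
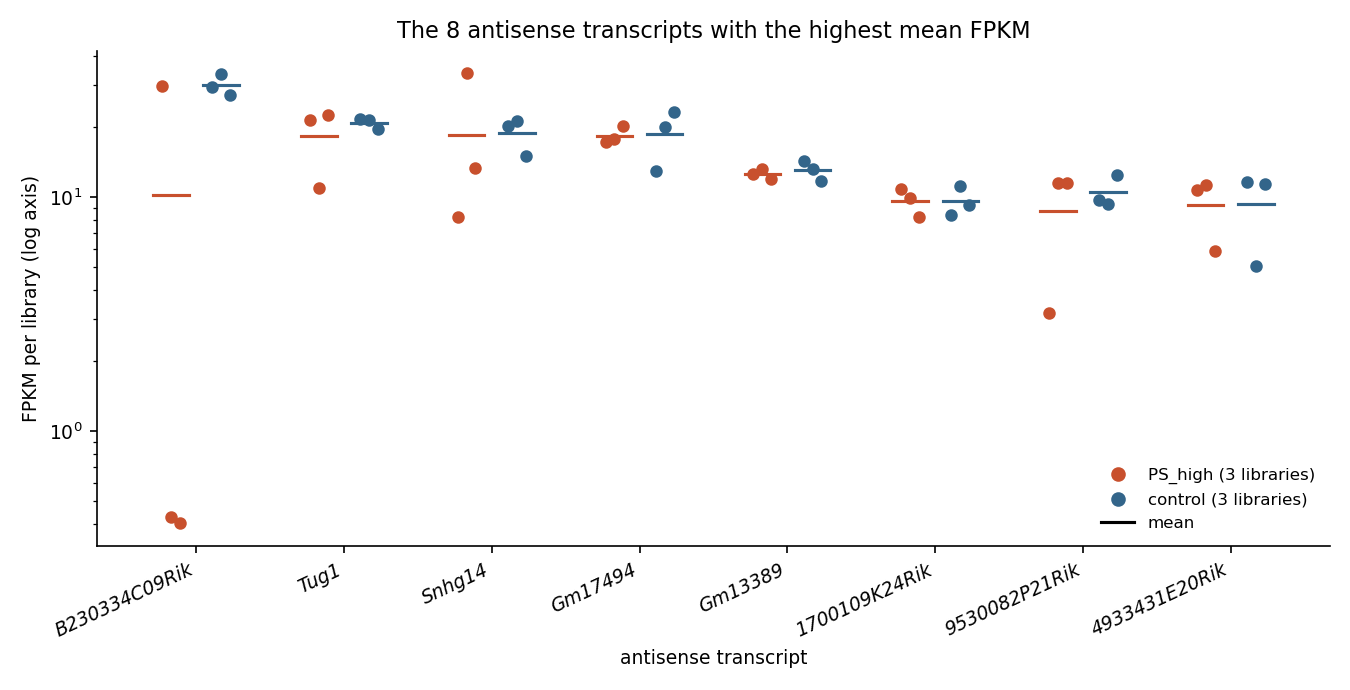
FPKM in each library (log axis) of the 8 antisense transcripts with the highest mean FPKM, PS_high left and control right; points are libraries and lines are means of 3. B230334C09Rik spans 0.40 to 33.5 FPKM because PS_high 2 and 3 are low, while the points of Gm13389 lie between 11.7 and 14.2 FPKM.

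Imprinted antisense genes were measured to very different depths. Airn, antisense to Igf2r, had 96, 47 and 40 counts over its 6 rows in PS_high and 44, 73 and 85 in control. Nespas, antisense to Nesp at the Gnas locus, had at most 37 counts in a library, and Tsix, the antisense gene of Xist, had at most 45. Snhg14, the host of many small nucleolar RNAs, had 14 annotated antisense rows that held 4.93% of its gene sum, and 9 of them were tested. Its gene sum of 161211, 123276 and 136077 counts in PS_high and 158341, 156255 and 146095 in control gave a log2 fold change of 0.01 ± 0.15 (SE; edgeR adjusted p = 0.9997). For Kcnq1ot1 the same value was -0.02 ± 0.18 and for Airn 0.02 ± 0.43.

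Of 18 antisense genes at homeobox and forkhead loci, 13 had annotated antisense rows and 3 were tested. Dlx6os1 (also Evf2), a regulator of the Dlx5 and Dlx6 genes in interneurons, had the widest spread. Its main row (ENSMUST00000159827) had 1109, 588 and 1513 counts in PS_high, against 926, 109 and 11 in control. Its gene sum was 1137, 2283 and 2871 in PS_high and 2343, 549 and 687 in control, with a log2 fold change of 0.93 ± 0.60 (SE; edgeR unadjusted p = 0.166). The summed interneuron markers were 514, 507 and 609 CPM in PS_high and 474, 528 and 571 CPM in control, and their part in the Dlx6os1 values was not tested. Emx2os, head to head with the cortical patterning gene Emx2, was even across libraries, with 284, 248 and 242 counts in PS_high and 274, 322 and 262 in control. Dlx1as had 140, 186 and 172 counts in PS_high and 229, 199 and 169 in control. Six3os1 had 12 rows, none tested, with 0 to 227 antisense counts per library, and Hoxb3os had a count of 0 throughout.

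The first comparison asked whether any antisense transcript differed after the exposure. With edgeR's quasi-likelihood test, 0 of 1062 passed an adjusted p of 0.05, where 0.00433% of all 69333 tested rows did, and the smallest adjusted p was 0.305. At an unadjusted p under 0.05 there were 15 antisense transcripts (1.41%), 5 higher and 10 lower in PS_high, against 3.58% of all rows. This split rested on single libraries: without control 2, 9 of 12 were higher, and without control 3, 9 of 17. It stayed on the lower side without PS_high 1, 2 or 3 (5 of 16, 5 of 16 and 5 of 20 higher) and without control 1 (5 of 15). In 79 (7.44%) the groups did not overlap, against 8.16% of all rows. The median log2 fold change was -0.03 over the antisense transcripts and -0.01 over all rows. Over the antisense transcripts it was 0.04 without control 2 and 0.01 without PS_high 3. Without PS_high 1, PS_high 2, control 1 or control 3 this median was -0.05, -0.09, -0.03 and -0.08. Limma passed 0 of the 1062 with 0.1 FPKM added before the logarithm and 0 with 1 FPKM added. Of all 69333 rows it passed 22 and 20. With so few calls over all rows, a count of 0 does not set the antisense transcripts apart. DESeq2 passed 5 antisense transcripts, against 1.41% of all rows: 2 of A330093E20Rik, and 1 each of Gm26911, A230083G16Rik and Gm28424.

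Summed over all exon-sharing rows of the same symbol, 1122 antisense genes were tested, and 1 passed, against 0.0247% of all 20272 genes. It was Gm48239, inside Cadps (a vesicle priming factor), with 712, 657 and 1337 counts in PS_high and 6488, 9518 and 7489 in control and a log2 fold change of -3.00 ± 0.28 (SE; edgeR adjusted p = 0.0392). The call was lost with limma (adjusted p = 0.0955 and 0.0831), without the filter on FPKM (0.0577), and when any library other than PS_high 3 was left out (0.0805 to 0.187), with the gene lower in PS_high each time. Only 0.279% of these counts lay in its annotated antisense row, and the rest in an assembled one. At an unadjusted p under 0.05 there were 29 antisense genes (2.58%), 8 higher and 21 lower, against 2.73% of all genes. Without control 1, 16 of 32 were higher, and without control 2, 14 of 25. Most stayed lower without PS_high 1, 2 or 3 (6 of 32, 5 of 25 and 15 of 37 higher) and without control 3 (6 of 24). The median log2 fold change of the antisense genes was -0.04, and it was 0.04 without control 2 and 0.05 without PS_high 3. Without PS_high 1, PS_high 2, control 1 or control 3 this median was -0.11, -0.08, -0.03 and -0.12. The groups did not overlap in 68 (6.06%), against 7.09% of all genes. DESeq2 passed 2, Gm48239 and Gm4221, against 0.232% of all genes. In 832 genes every count lay in annotated antisense rows, and of these 17 (2.04%) had an unadjusted p under 0.05, 5 higher and 12 lower. In 227 of the 1122 antisense genes under 50% of the counts lay in such rows, and in 72 it was 0%.

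B230334C09Rik, highest by FPKM, had widely different counts within PS_high. It is an unspliced RNA of 8927 bases (ENSMUST00000200255, chr3:158067186-158076112, minus strand) whose last 1302 bases run tail to tail against Lrrc40. Its counts were 20273, 243 and 264 in PS_high, against 20598, 21996 and 19293 in control. PS_high 1 was as high as the control libraries, and PS_high 2 and 3 were far below them. The log2 fold change of the gene was -1.44 ± 1.46 (SE; edgeR adjusted p = 0.9997) over all libraries, and -6.19 ± 0.20 without PS_high 1 (adjusted p = 0.000521). For the transcript row the values were -1.56 ± 1.69 (adjusted p = 0.99998) and, without PS_high 1, -6.14 ± 0.23 (adjusted p = 0.0904).

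The same last base and strand are shared by 3 assembled rows of Lrrc7, the next gene, which encodes densin, a scaffold protein of the postsynaptic density. The most abundant of these had 22198, 35466 and 40890 counts in PS_high and 1637, 23762 and 9319 in control. With B230334C09Rik the 4 rows summed to 43428, 37691 and 41427 counts in PS_high and 23426, 46689 and 28896 in control. In this sum PS_high 2 and 3 were no longer apart from the control libraries. Estimated counts divide reads between overlapping rows, and how far this division sets the low values was not tested.

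**Figure D3:**
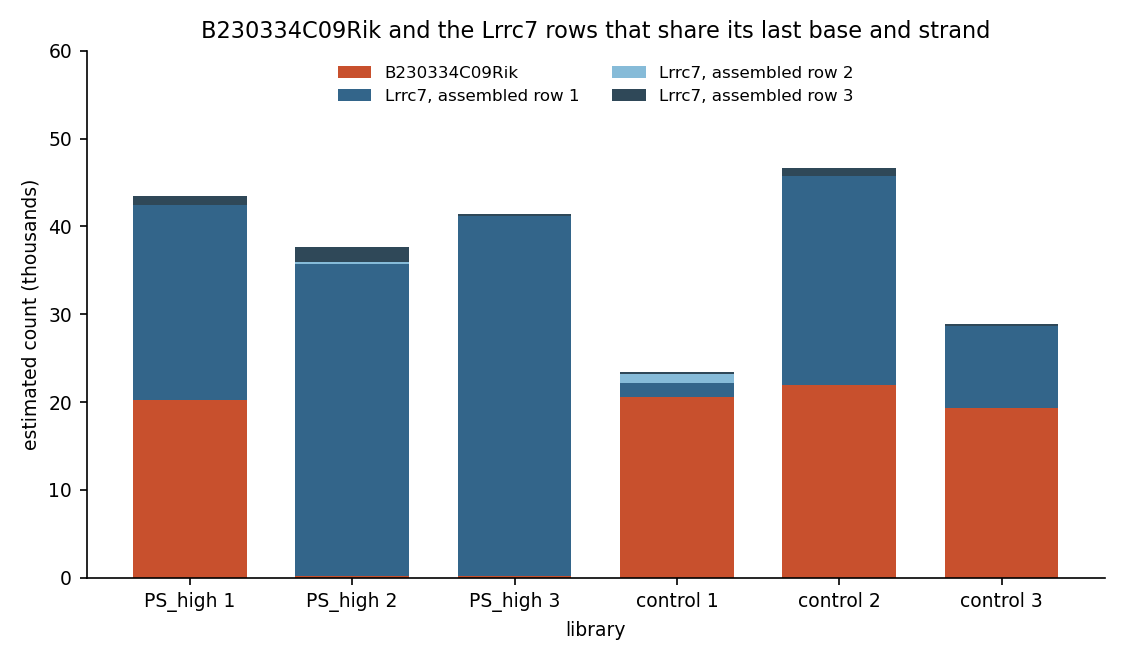
Estimated counts (in units of 1000) of B230334C09Rik and of the 3 assembled Lrrc7 rows that share its last base and strand, stacked by library, PS_high left of control. B230334C09Rik fills 19293 to 21996 counts in PS_high 1 and the control libraries and 243 and 264 in PS_high 2 and 3, while the stacks range from 23426 to 46689.

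Large differences of single rows were not seen in the gene sums. In 12 tested transcripts the log2 fold change exceeded 2 in size. The log2 fold change of the gene sum was under 1 in size for all 12, and for 6 it had the opposite sign. The clearest case was Gm26911, inside Pdzrn3, a ubiquitin ligase gene. Its row ENSMUST00000204244 (chr6:101198586-101220141, plus strand) had 0, 0 and 0 counts in PS_high and 121, 85 and 77 in control. Against a floor of 3 counts over the PS_high group it was at least 87.1-fold lower in PS_high, a bound that covers counting error only (edgeR adjusted p = 0.305). The gene sum went the other way, with 1639, 1263 and 938 counts in PS_high and 776, 947 and 742 in control (log2 fold change 0.79, unadjusted p = 0.018).

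A330093E20Rik, tail to tail with the potassium channel gene Kcnn2, had rows of opposite direction. ENSMUST00000184994 had 6, 0 and 0 counts in PS_high and 317, 256 and 317 in control. ENSMUST00000184346 had 145, 46 and 0 in PS_high and 1, 0 and 0 in control, and an assembled row had 4, 115 and 319 in PS_high and 4, 5 and 2 in control. The gene sum was 164, 189 and 348 counts in PS_high and 329, 269 and 329 in control, with a log2 fold change of -0.28. 2610020C07Rik, tail to tail with the translation termination factor gene Gspt1, had 213, 463 and 533 counts in its row ENSMUST00000181526 in PS_high and 138, 120 and 17 in control. Its assembled row had 720, 0 and 0 in PS_high and 666, 685 and 196 in control, and the gene sum gave 0.15.

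**Figure D4:**
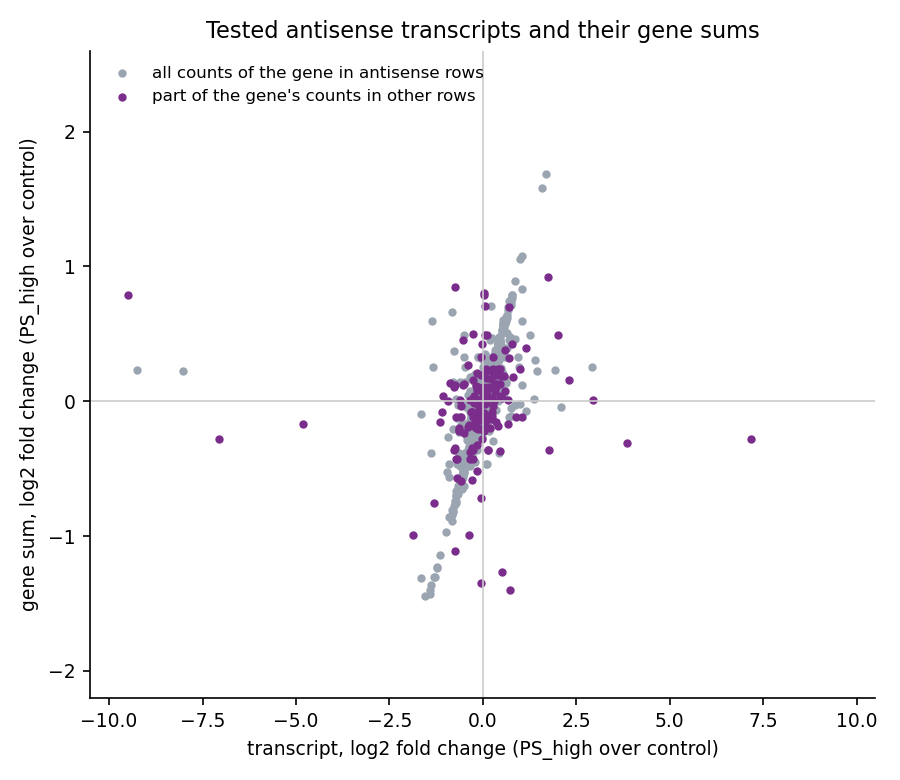
Log2 fold change (PS_high over control) of each of the 1062 tested antisense transcripts (horizontal) and of its gene sum (vertical); grey points are transcripts of genes whose counts all lie in annotated antisense rows, purple points are the others. Most points lie near the diagonal, and the transcripts past 2 in size have gene sums under 1 in size.

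Other transcripts and genes with no overlap between groups had smaller differences, and none passed the threshold in edgeR. 1700085D07Rik, inside the focal adhesion kinase gene Ptk2, had 136, 110 and 108 counts in PS_high and 84, 87 and 93 in control, with no overlap (gene log2 fold change 0.57 ± 0.24, SE; edgeR unadjusted p = 0.050). 5830468F06Rik, inside Kbtbd11, had 103, 71 and 97 counts in PS_high and 37, 45 and 81 in control, with a gene log2 fold change of 0.89 ± 0.34. Gm4221, which has no protein-coding partner, had 2.76, 2.59 and 1.32 CPM in PS_high and 0.610, 0.818 and 0.638 CPM in control (1.69 ± 0.37; edgeR unadjusted p = 0.002, adjusted p = 0.9997; DESeq2 adjusted p = 0.0251). A230083G16Rik had 54, 63 and 49 counts in PS_high and 21, 11 and 30 in control (transcript log2 fold change 1.57; DESeq2 adjusted p = 0.0347). Snhg14 row ENSMUST00000189581 had 1288, 667 and 1060 counts in PS_high and 728, 673 and 649 in control (transcript log2 fold change 0.67 ± 0.26, edgeR unadjusted p = 0.046), with no overlap after scaling to library size. E230029C05Rik, head to head with the Polycomb gene Eed and 260 bases from its start, had 152, 208 and 224 counts in its row ENSMUST00000207458 in PS_high and 123, 137 and 114 in control (0.80 ± 0.31), while the gene sum gave 0.18. On the gene level 1700060J05Rik, inside the choline transporter gene Slc44a1, and 4933433G19Rik, tail to tail with the phosphatidylserine synthase gene Ptdss1, had log2 fold changes of 0.43 ± 0.17 and 0.55 ± 0.24, but 0.00% and 1.12% of their counts lay in annotated antisense rows.

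Among those lower in PS_high, Gm10848, inside the calcium channel gene Cacnb2, had 57, 42 and 74 counts in PS_high and 133, 226 and 103 in control. Its gene log2 fold change was -1.30 ± 0.38 (SE; edgeR unadjusted p = 0.010, adjusted p = 0.9997). Cacnb2 itself had 70.9, 73.9 and 64.1 CPM in PS_high and 108, 98.7 and 88.7 CPM in control (-0.50 ± 0.14, unadjusted p = 0.008, adjusted p = 0.9997), so that both strands were lower without overlap. Gm11657, inside the protein kinase C gene Prkca, had 12, 14 and 12 counts in PS_high and 22, 45 and 43 in control, while Prkca had 312, 319 and 289 CPM in PS_high and 301, 278 and 289 CPM in control. Gm16323, inside the carnitine acetyltransferase gene Crat, had 0.535, 1.10 and 1.20 CPM in PS_high and 1.75, 1.83 and 3.08 CPM in control (-1.23 ± 0.41). Gm28424 had 47, 39 and 42 counts in PS_high and 75, 90 and 92 in control (transcript log2 fold change -0.87; DESeq2 adjusted p = 0.0296).

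Both antisense genes of Grip1, a scaffold of AMPA-type glutamate receptors, had lower means in PS_high, and neither passed the threshold. Grip1os1 row ENSMUST00000135940 had 48, 48 and 59 counts in PS_high and 81, 123 and 118 in control (log2 fold change -0.91 ± 0.29, SE; edgeR unadjusted p = 0.022). Its other row, ENSMUST00000126965, had 39, 80 and 63 in PS_high and 82, 86 and 25 in control, and the log2 fold change of the gene sum was -0.47 (edgeR unadjusted p = 0.150). Grip1os2 had 305, 254 and 290 counts in PS_high and 812, 379 and 683 in control (-1.0001 ± 0.30, unadjusted p = 0.011), with 0.00% of them in its annotated row. Grip1 had 14.4, 19.5 and 18.5 CPM in PS_high and 21.4, 27.5 and 17.4 CPM in control, where the groups overlapped.

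Antisense genes named for their neighbour (symbols ending in os, with or without a number, and similar) numbered 275, of which 104 were tested. Of these, 34 had a log2 fold change above 0 and 70 below 0, with a median of -0.10. The values are those of gene sums. For some of the genes, such as Ppp2r2cos and Plxna4os2, 0% of the counts lay in annotated antisense rows. Over all antisense genes tested, 43.9% were above 0 with a median of -0.04, and over all genes 48.5% with a median of -0.01. The direction over all antisense genes turned with single libraries, since 617 of 1122 were above 0 without control 2 and 635 without PS_high 3. It was kept without PS_high 1, PS_high 2, control 1 or control 3, with 429, 454, 532 and 407 above 0. The list of 104 was not refitted without any of these libraries. In edgeR and in DESeq2 0 passed the threshold, and 2 had an edgeR unadjusted p under 0.05, which 2.73% of all genes had: Grip1os2, above, and Ict1os, inside the mitochondrial ribosome gene Mrpl58, which had 86, 66 and 74 counts in PS_high and 94, 162 and 163 in control. Dnm3os, inside the dynamin gene Dnm3 and the host of the miR-199a and miR-214 cluster, had 16.2, 15.8 and 15.4 CPM in PS_high and 25.4, 21.2 and 15.1 CPM in control. The groups overlapped through control 3, with a log2 fold change of -0.38 ± 0.22 (SE; edgeR unadjusted p = 0.124). Of 17369 circular RNAs, 40 had an annotated antisense transcript as host, with 49, 37 and 37 back-splice reads in all in PS_high and 44, 24 and 39 in control.

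The next comparison set each antisense gene against its partner. Over 1773 pairs the annotated antisense rows of a gene had a median of 0.669 FPKM. The whole sense gene, with its assembled rows, had 6.76 FPKM. The median ratio was 9.92%, and in 149 pairs (8.40%) the antisense level was the higher one. Levels of the strands were correlated across pairs (Spearman's rho 0.31, n = 1773 pairs, which share libraries and often genes), given here as a description. In 1091 pairs with both genes tested, the log2 fold changes of the strands had a rho of 0.06. Over the 6 libraries the median correlation within a pair was 0.21 and 698 pairs (64.0%) were above 0. By arrangement the median was 0.26 for tail-to-tail pairs (n = 184), 0.21 for pairs with the antisense inside (n = 682), 0.17 for head-to-head pairs (n = 200) and -0.11 for spanning ones (n = 25). An antisense gene took the arrangement of its row with the highest mean count, among rows with a partner. That label was used for every pair of the gene, and another partner may lie differently. The rho of 0.31 sets annotated antisense rows alone against whole sense genes. The rho of 0.06 and the correlations over the 6 libraries use gene sums on both strands, which include assembled rows. Unrelated gene pairs were not measured for comparison. How far differences between libraries shared by many genes set these values was not tested.

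**Figure D5:**
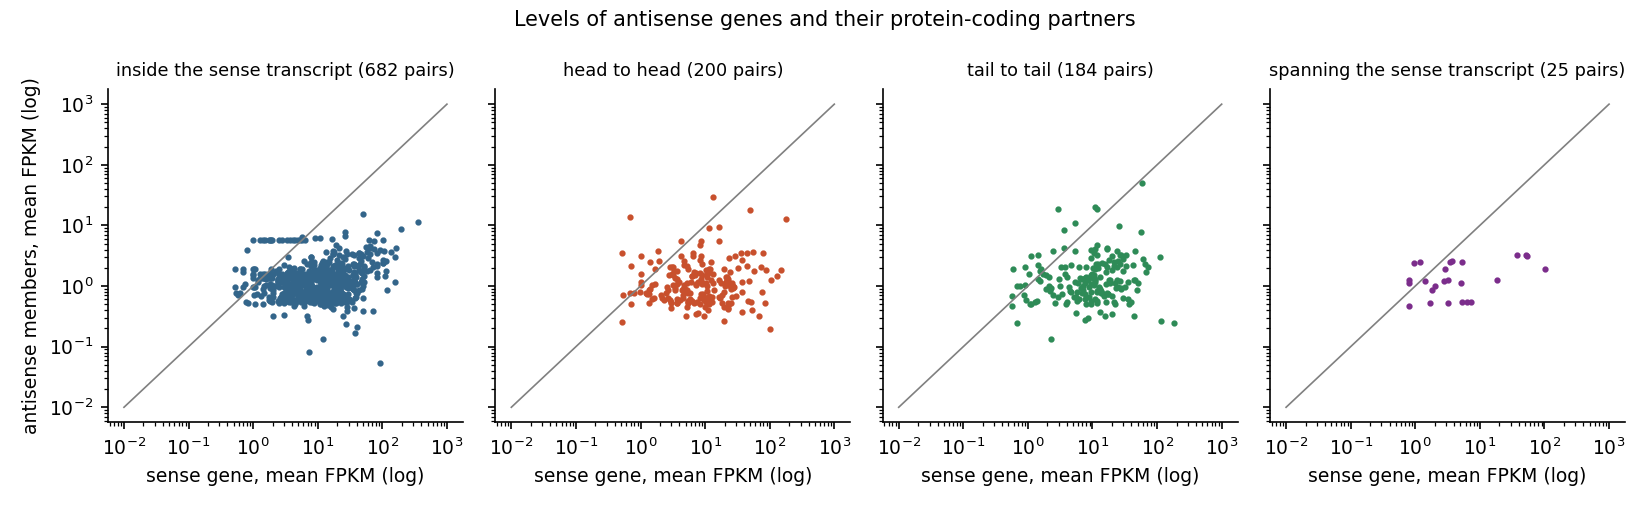
Mean FPKM over 6 libraries of the antisense members (vertical) and the whole sense gene (horizontal) in 1091 gene pairs with both genes tested, by arrangement, on log axes; the line marks equal levels. Most points lie below the line in all 4 panels. Pairs of the same antisense gene share the arrangement of its row with the highest mean count, among rows with a partner.

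Tested as the antisense count relative to the overlapping sense rows, 0 of 1680 pairs passed in edgeR (0.0% of all pairs tested), and limma passed 1 pair. An unadjusted p under 0.05 was reached by 106 pairs (6.31%), 47 higher and 59 lower. Without PS_high 1, 2 or 3 in turn, 53 of 95, 57 of 94 and 70 of 107 were higher; without control 1, 2 or 3 it was 28 of 85, 28 of 74 and 34 of 100. In 135 (8.04%) the groups did not overlap. In the pairs named here the ratio moved mostly with the counts of the sense rows. Gm13389 was even between groups, as given above, but the 11 overlapping Celf2 rows had 1879, 8528 and 2186 counts in PS_high and 21534, 14131 and 21491 in control, a log2 fold change of the ratio of 2.63 ± 0.73 (SE; unadjusted p = 0.011, adjusted p = 0.735). With all Celf2 counts (61877, 53198 and 66716 in PS_high, 67635, 62260 and 63215 in control) it was -0.07. Gm10545 in the protocadherin alpha cluster had 842, 444 and 532 counts in PS_high and 1118, 571 and 804 in control, and its Pcdha9 row had 446, 0 and 0 in PS_high and 769, 633 and 686 in control. The fitted log2 fold change of this ratio, 8.12, rested on PS_high 2 and 3, where the sense count was 0; it was -0.07 with the whole gene. For Gm45606, antisense to the amino acid transporter gene Slc43a2, the ratio gave 3.37, and 0.47 with the whole gene; for Grip1os1 and Grip1 it gave -2.95 and -0.14.

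A830036E02Rik, antisense to the corneal keratin gene Krt12, kept its direction with the whole gene. Its annotated rows had 109, 129 and 150 counts in PS_high and 924, 416 and 779 in control, with the whole Krt12 gene at 172, 209 and 235 in PS_high and 216, 145 and 338 in control. The ratio was -2.13 ± 0.44 with the overlapping row (edgeR adjusted p = 0.735) and -2.32 with the whole gene. The annotated rows held 13.6% of the gene sum of A830036E02Rik, which was 3478, 2389 and 2312 counts in PS_high and 3925, 1728 and 4622 in control (log2 fold change -0.17 ± 0.35). Of the 1420 partner genes tested, 0 passed in edgeR and 22 (1.55%) had an unadjusted p under 0.05, against 0.0247% and 2.73% of all genes, with a median log2 fold change of 0.01.

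In a few pairs the mean antisense count was well above that of the overlapping sense rows. The ratio of mean counts was 16.5 for Tug1 over Morc2a, 15.2 for B230334C09Rik over Lrrc40, 9.93 for Gm26672 over Pcdhga12, 8.999 for Gm28370 over Gm20498 and 8.21 for Gm26672 over Pcdhgb2. These sense rows are only part of each gene, and against whole-gene counts the ratios are lower. The antisense counts sum all annotated antisense rows of a gene, including rows that do not overlap the partner. The main Tug1 row, ENSMUST00000153313, overlapped no protein-coding row on the opposite strand. Most of the Tug1 count therefore lay in a row that does not overlap Morc2a. The whole Morc2a gene had 3005, 2733 and 3310 counts in PS_high and 2815, 2916 and 3468 in control. The Pcdhga12 row had 364, 312 and 0 in PS_high and 217, 0 and 0 in control. Its whole gene had 819, 1074 and 1238 in PS_high and 1192, 1199 and 1122 in control. The ratio of B230334C09Rik did not hold in every library: PS_high 2 had 243 antisense and 750 sense counts, and PS_high 3 had 264 and 1003. Gm26672 lies across the protocadherin gamma cluster, whose genes encode cell surface proteins of neurons. It had 1409, 1385 and 1264 antisense counts in PS_high and 1529, 1854 and 1429 in control, while Pcdhgb2 rows had 278, 1 and 138 in PS_high and 209, 282 and 173 in control.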

How the data were processed

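RNA of 6 prefrontal cortex samples was depleted of ribosomal RNA and made into stranded libraries, per the labels' protocols. HISAT2, StringTie and TopHat are listed in the submitters' processing notes, without versions; the genome build was not stated. In GRCm38.p6, 792 of 917 small nuclear RNA genes had the table's positions. The authors deposited FPKM and an estimated count per transcript, in which reads shared between rows are divided, and for circular RNAs a count of back-splice reads. Transcripts and gene sums with a mean of at least 0.5 FPKM were tested with edgeR 4.0.16 (quasi-likelihood, TMM, R 4.3.3), with Benjamini-Hochberg adjustment over the whole table. The planned pair test used an offset of the sense count plus 1, for pairs with means of at least 10 counts. Its antisense count summed all annotated antisense rows of a gene, including rows that do not overlap the partner. SE was derived from the edgeR statistic. Gene sums include assembled rows that share exons. Partners were protein_coding rows overlapping on the opposite strand; the arrangement used the partner transcript with the highest FPKM. DESeq2 1.42.0 and limma 3.58.1 were alternatives. On simulated counts, the edgeR fit recovered 38% of 2-fold and 98% of 4-fold changes over 69333 transcripts, and 48% and 96% over 20272 genes. The simulation used the same fixed dispersion (spread between samples) for every row and no division of reads between rows. Recovery at the spread of the antisense rows, whose median SE was 0.380 for transcripts and 0.334 for genes, was not tested. The members, the lists and the tests were chosen with earlier results of these data known. Named features were the 8 highest by FPKM, the 5 higher and 5 lower transcripts and genes and 3 higher and 3 lower pairs of smallest p without overlap and at least 1 FPKM in a group, the 5 highest pair ratios with at least 100 sense counts, and genes fixed by name; 1 of these pairs is not reported here. Tug1 and 4933431E20Rik side rows, the 12 large rows, A230083G16Rik, Gm28424, Cacnb2, Gclm, Ict1os and B230334C09Rik without PS_high 1 were described after their values were seen.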

Additional observations from a re-analysis of the deposited data

How the results depend on the processing

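No antisense transcript passed the threshold in 12 of 13 alternatives (other library factors, no filter, filterByExpr, both limma pseudocounts, the replicate block and each left-out library, range 0 to 0), and 5 passed in DESeq2. For antisense genes, 1 passed with RLE factors and filterByExpr and 2 in DESeq2. With no filter, with limma at 0.1 or 1 FPKM, with the replicate block and with annotated rows alone, 0 passed. An unadjusted p under 0.05 was reached by 81 of 2537 antisense genes without the filter, against 971 of 36895 over all genes. With limma at 0.1 FPKM it was 26 of 1122 against 585 of 20272, and at 1 FPKM 27 of 1122 against 609 of 20272. With the replicate block it was 36 of 1122 against 650 of 20272, and with annotated rows alone 26 of 991 against 694 of 19759. Leaving out a library gave 0 to 1 antisense genes: without PS_high 1 it was B230334C09Rik (adjusted p = 0.000521) and without PS_high 3 it was Gm48239 (adjusted p = 0.0428). Gm48239 stayed lower in all 13 alternatives (log2 fold change -3.32 to -2.32; adjusted p 1.75e-18 to 0.234), and was past the threshold in 4 of them. For pairs, 0 passed with an overlap of at least 200 bases, a mean of at least 30 counts, whole-gene sense counts (72 at an unadjusted p under 0.05) or the replicate block (34 at an unadjusted p under 0.05, against 106 without it). In limma's ratio 1 passed (Gm44777 over Pik3c2a), and leaving out a library gave 0 to 2: Gm36146 over Armh4 without control 1, and Gm44777 over Pik3c2a and 1700052K11Rik over Tlk2 without control 3. Whole-gene sense counts, an alternative chosen after seeing the data, reversed Gm10545 over Pcdha9 (-0.068) and Gm13389 over Celf2 (-0.072). The other transcripts, genes and pairs named for their difference kept their sign in every alternative that gave a value. Of the pairs named for a high ratio, Tug1 over Morc2a (0.04, and -0.17 with whole-gene counts) and Gm28370 over Gm20498 (-0.20, and 0.31) did not; features named for their level or by name were not refitted under the alternatives one by one. The difference in antisense share (PS_high minus control) was -0.0318 percentage points, and -0.0438 to -0.0149 when 1 library was left out.

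Same-numbered samples correlated at 0.205, 0.113 and 0.0590 in their deviations from the group means over 20272 genes, so the numbers were not taken to pair the samples. Over these genes each PS_high sample correlated best with its own number, a hint from the data, but over the 1062 antisense transcripts PS_high 3 correlated best with control 2 (0.0906, against -0.00316 with its own number). Limits are the 3 samples per group, the division of reads between overlapping rows, and low counts: 2539 of the 4491 antisense transcripts had a mean under 10 counts.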
